A study of Mus musculus with 6 samples.

Results

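Kupffer cells are the macrophages that live in the sinusoids of the liver, and 10 genes used as their markers (Clec4f, Vsig4, Timd4, Marco, Cd5l, Adgre1, Csf1r, C1qa, C1qb and C1qc) were followed in whole-liver RNA. The genes were chosen by name, as markers of this cell type, and all 10 were found among the 20673 genes of the deposited tables and among the 13105 genes with enough counts to test. RNA-seq libraries were made from the livers of C57BL/6J mice, 3 fed a regular diet (RD) and 3 fed a high-cholesterol diet (HCD) for 3 days, with 1 library per liver. The HCD held sodium cholate and cocoa butter besides cholesterol, and these components cannot be told apart. The labels list the RD livers as untreated and give neither age nor sex. The study used mice of both sexes. The RD and HCD libraries are named by different schemes, and the labels do not say whether they were prepared together, so a batch that followed this naming and the diet cannot be told apart. No sepsis had been induced in these mice.

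Kupffer cells take up bacteria, aged red blood cells, lipoproteins and cell debris from portal blood, and they depend on signalling through the CSF1 receptor. Some of their markers are close to restricted to them in the liver (Clec4f, Vsig4, Timd4, Marco, Cd5l), and others are shared with macrophages elsewhere (Adgre1, Csf1r and the C1q genes). Monocytes that enter the liver gain most of these markers with time, and Timd4 is among the last to appear on them.

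All 10 markers had higher mean levels with HCD than with RD, but livers fed alike differed widely, and none passed the test. A log2 fold change above 0 was found for 50.7% of all genes tested. The log2 fold changes of the markers, HCD over RD, ran from 0.24 for Adgre1 to 1.21 for Cd5l with a median of 0.84, against a median of 0.0074 over all genes tested. A gene was called where its Benjamini-Hochberg adjusted p was under 0.05 in the quasi-likelihood test of edgeR. By this rule 0 of the 10 markers were called, where 1.95% of all genes tested were called higher and 1.32% lower. Before adjustment, p was 0.05 or less with a higher level for 5 of the 10 (Clec4f, Vsig4, Cd5l, C1qb and C1qc) and with a lower level for 0, where 11.1% of all genes were higher and 9.81% lower by this rule. The DESeq2 Wald test called 4 of the 10 higher (Clec4f, Cd5l, C1qb and C1qc), where it called 3.88% of 14223 genes higher. In bulk liver, fewer cells of a type and less RNA per cell cannot be told apart, and the same holds for more of either.

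The depth was 13771630 to 23129576 counts per liver with RD and 13935491 to 18545549 with HCD. Levels are given as CPM, counts brought to a common library total after TMM scaling. A count of 0 allows up to 3 counts, which corresponded to 0.1303 to 0.243 CPM, and this limit covers counting error only. Every marker was above it in every liver. The liver of HCD replicate 1 was the only one with Xist RNA, at 254.3 CPM against 0 in the other 5, and Ddx3y, Eif2s3y, Kdm5d and Uty of the Y chromosome were at 0 in it alone. Leaving that liver out gave a median marker log2 fold change of 0.62. The hepatocyte genes Alb (63320 to 105600 CPM) and Apoa1 (5478 to 11170 CPM) were abundant in all 6 libraries.

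Promoter sequences show what stands upstream of the marker genes. RefSeq (GRCm38.p6) lists a promoter window of 300 bases, 250 before and 50 after the start, for 7 of the 10 markers (Clec4f, Vsig4, Timd4, Marco, Cd5l, C1qb and C1qc). The last 150 bases before the start are printed for 3 of them, chosen because C1qb was the one marker whose diets did not overlap, Cd5l had the largest log2 fold change, and Clec4f is the marker most restricted to Kupffer cells. They run 5′ to 3′ on the gene's strand, and the capitals mark the purine box GAGGAA or its reverse complement TTCCTC, the core that the macrophage factor PU.1 (Spi1) binds. The printed bases of C1qb lie at chr4:136886201-136886350 on the minus strand, those of Cd5l at chr3:87357731-87357880 on the plus strand, and those of Clec4f at chr6:83656117-83656266 on the minus strand.
C1qb: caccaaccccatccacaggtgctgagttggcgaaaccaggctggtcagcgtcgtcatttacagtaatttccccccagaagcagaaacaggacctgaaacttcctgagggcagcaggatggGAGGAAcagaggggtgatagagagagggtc
Cd5l: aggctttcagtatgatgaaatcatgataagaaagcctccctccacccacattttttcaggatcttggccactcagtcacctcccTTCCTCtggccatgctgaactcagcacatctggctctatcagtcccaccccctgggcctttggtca
Clec4f: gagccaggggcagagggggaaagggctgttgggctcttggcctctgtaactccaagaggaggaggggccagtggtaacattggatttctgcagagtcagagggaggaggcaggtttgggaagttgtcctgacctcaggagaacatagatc
The box began 30 bases before the start in C1qb and 66 bases before it in Cd5l, and these letters were not in the window of Clec4f. Over the full 300 bases, 5 of 7 marker promoters (Marco, Cd5l, C1qb, C1qc and Vsig4) held GAGGAA or TTCCTC, and 28.3% of 32851 promoter windows did. TGCTGA or TCAGCA, the core letters that MAF factors bind, stood in 5 of 7 (Cd5l, C1qb, Clec4f, Timd4 and Vsig4) and in 19.5% of all windows. TATAAA or TTTATA stood in 0 of 7 and in 13.6% of all windows. The search took both strands, and none of these motifs contains another. A link between these letters and the levels of the markers was not tested.

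Clec4f (ENSMUSG00000014542, chromosome 6) encodes a C-type lectin of the Kupffer cell surface that binds galactose-bearing glycans. It stood at 43.1, 54.0 and 67.2 CPM in the 3 RD livers and at 120.3, 114.9 and 54.0 CPM in the 3 HCD livers. HCD replicates 1 and 2 lay above every RD liver, while HCD replicate 3 lay inside the RD range. The means were 54.8 ± 12.1 CPM with RD and 96.4 ± 36.8 CPM with HCD (SD, n = 3 each). This gave a log2 fold change of 0.82 with a standard error of 0.30, and edgeR's adjusted p was 0.170. The exact two-sided permutation test gave p = 0.3, where 3 livers against 3 allow no p below 0.10. With each liver left out in turn, the log2 fold change stayed between 0.63 and 1.09.

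Vsig4 (ENSMUSG00000044206, chromosome X) encodes the complement receptor CRIg, which binds C3b and iC3b on particles and bacteria in the bloodstream. Its level was 7.74, 9.42 and 12.6 CPM with RD and 25.2, 20.2 and 10.4 CPM with HCD. The order of the livers was close to that for Clec4f, with HCD replicate 3 again between RD livers. The log2 fold change was 0.91 (standard error 0.33, edgeR adjusted p = 0.165), and the exact permutation p was 0.2. Without HCD replicate 1, the liver with Xist RNA, its log2 fold change was 0.62, and the median over the 10 markers was 0.62 as well. Vsig4 is X-linked, and a part of this in its level was not tested.

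Timd4 (ENSMUSG00000055546, chromosome 11) encodes a phosphatidylserine receptor used to take up dying cells, and it marks resident Kupffer cells of long standing. It was among the lowest markers, at 1.44, 2.72 and 4.73 CPM with RD and 9.35, 4.41 and 2.84 CPM with HCD. One liver, HCD replicate 1, was above the RD range, and the other HCD livers were within it. Timd4 had a log2 fold change of 0.91 (standard error 0.55, edgeR adjusted p = 0.382), which was 0.29 without HCD replicate 1, 0.57 without RD replicate 1 and 1.43 without RD replicate 3.

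Marco (ENSMUSG00000026390, chromosome 1) encodes a class A scavenger receptor for bacteria and particles. Its level was 1.25, 2.16 and 5.56 CPM with RD and 6.47, 3.93 and 6.89 CPM with HCD. Marco was the one marker with its highest level in HCD replicate 3, and RD replicate 3 lay above HCD replicate 2. Its log2 fold change was 0.93 (standard error 0.53, edgeR adjusted p = 0.355). It was 1.76 without RD replicate 3 and 0.56 without RD replicate 1.

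Cd5l (ENSMUSG00000015854, chromosome 3) encodes a secreted protein, also called AIM, that macrophages release and that circulates bound to IgM. It is a known target of the oxysterol-sensing LXR receptors. The RD livers held 32.1, 36.8 and 60.4 CPM and the HCD livers 132.2, 114.7 and 53.3 CPM. HCD replicates 1 and 2 were well above all RD livers, and HCD replicate 3 fell between the RD livers. The means were 43.1 ± 15.2 CPM with RD and 100.1 ± 41.5 CPM with HCD (SD, n = 3 each), a ratio of 2.32. The log2 fold change of 1.21 (standard error 0.35) had an adjusted p of 0.101 in edgeR, while DESeq2 gave an adjusted p of 0.00189 and edgeR without the filter on low counts 0.0350. Its log2 fold change stayed between 0.96 and 1.54 with each liver left out. Nr1h3, which encodes LXRα, stood at 95.02 to 108.3 CPM with RD and 98.7 to 119.6 CPM with HCD, with a log2 fold change of 0.15 (edgeR adjusted p = 0.543). LXR activity was not measured, and its part in the Cd5l values was not tested.

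Adgre1 (ENSMUSG00000004730, chromosome 17) encodes F4/80, the surface protein used most to stain mouse macrophages. The RD livers were at 4.71, 5.51 and 11.3 CPM and the HCD livers at 11.2, 11.4 and 2.76 CPM. The lowest of the 6 livers was HCD replicate 3, and RD replicate 3 was level with the other HCD livers. The log2 fold change was 0.24 (standard error 0.52, edgeR adjusted p = 0.830), with an exact permutation p of 0.9, the highest of the markers. It was -0.015 without HCD replicate 1, -0.029 without HCD replicate 2 and as high as 0.73 without RD replicate 3.

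Csf1r (ENSMUSG00000024621, chromosome 18) encodes the receptor for CSF1 and IL-34, on which Kupffer cells depend for survival. The RD livers were close together at 22.4, 26.9 and 27.5 CPM, and the HCD livers were at 50.2, 42.3 and 20.3 CPM. The spread therefore lay with the HCD livers, where the highest was 2.48 times the lowest, against 1.23 times with RD. HCD over RD gave a log2 fold change of 0.56 (standard error 0.29, edgeR adjusted p = 0.321), with 0.29 without HCD replicate 1 and 0.85 without HCD replicate 3. Exons of Csf1r share 3446 bases with those of Hmgxb3 on the opposite strand, and the sources used here do not give whether counting used strand. Hmgxb3 had 1080 counts in all 6 livers together and a log2 fold change of -0.51 (edgeR adjusted p = 0.490).

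The CSF1 receptor axis, a list of 8 genes that includes Csf1r, did not move as one. Of its 7 tested genes 2 were higher with HCD and 5 lower, with a median log2 fold change of -0.13 and 0 called, and Spi1 alone had an unadjusted p under 0.05. The ligand gene Csf1 stood at 15.4, 16.9 and 9.99 CPM with RD and 14.8, 7.65 and 8.02 CPM with HCD, a log2 fold change of -0.46 (edgeR adjusted p = 0.426). Il34, the other ligand gene, was at 2.88, 2.93 and 1.61 CPM with RD and 2.98, 0.827 and 2.27 CPM with HCD (log2 fold change -0.27, edgeR adjusted p = 0.806). Irf8, a transcription factor of macrophages, was at 3.27 to 10.3 CPM with RD and 4.69 to 7.73 CPM with HCD (log2 fold change -0.021). Spi1, which encodes PU.1, had a log2 fold change of 0.85 with an edgeR adjusted p of 0.194.

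C1qa, C1qb and C1qc are neighbouring genes of chromosome 4, and their protein chains assemble into C1q, the recognition part of the first complement component. Macrophages are a main source of C1q. C1qb (ENSMUSG00000036905) was at 20.7, 25.2 and 32.7 CPM with RD and 51.4, 51.8 and 33.2 CPM with HCD. It was the one marker of 10 whose lowest HCD liver lay above its highest RD liver, by a narrow margin, where 14% of all genes tested had diets apart in this direction and 27.6% in either. The means were 26.2 ± 6.10 CPM with RD and 45.5 ± 10.6 CPM with HCD (SD, n = 3 each). The log2 fold change was 0.80 (standard error 0.23), the lowest adjusted p of the markers in edgeR at 0.0995, and the exact permutation p of 0.1 is the smallest this design allows.

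C1qc (ENSMUSG00000036896) was at 13.8, 20.6 and 23.5 CPM with RD and 42.7, 40.1 and 22.7 CPM with HCD. Its log2 fold change was 0.87 (standard error 0.28, edgeR adjusted p = 0.128). C1qa (ENSMUSG00000036887) was at 21.0, 27.4 and 31.2 CPM with RD and 56.6, 44.5 and 23.4 CPM with HCD, with a log2 fold change of 0.65 (standard error 0.30, edgeR adjusted p = 0.261) that was 0.36 without HCD replicate 1. In both genes HCD replicate 3 lay within the RD range, so the chains of one complex showed a similar arrangement of livers apart from the margin in C1qb.

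**Figure D1:**
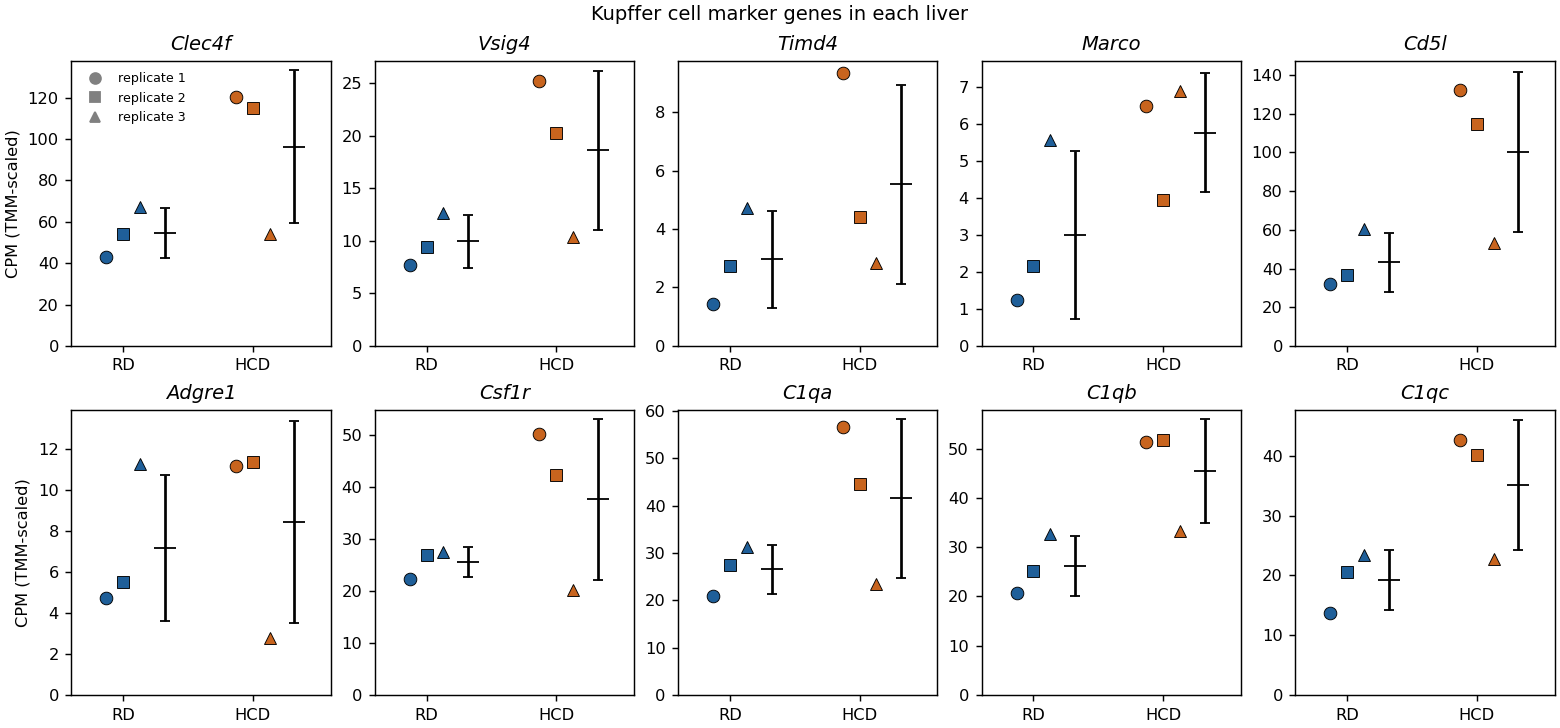
CPM (TMM-scaled, linear axis from 0) of each Kupffer cell marker in the 3 RD livers (blue) and 3 HCD livers (orange), with the replicate number as the symbol and the mean ± SD as bars. HCD replicates 1 and 2 stand above most RD livers, and HCD replicate 3 lies in or below the RD range for 8 of the 10 genes, the exceptions being Marco and C1qb.

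**Figure D2:**
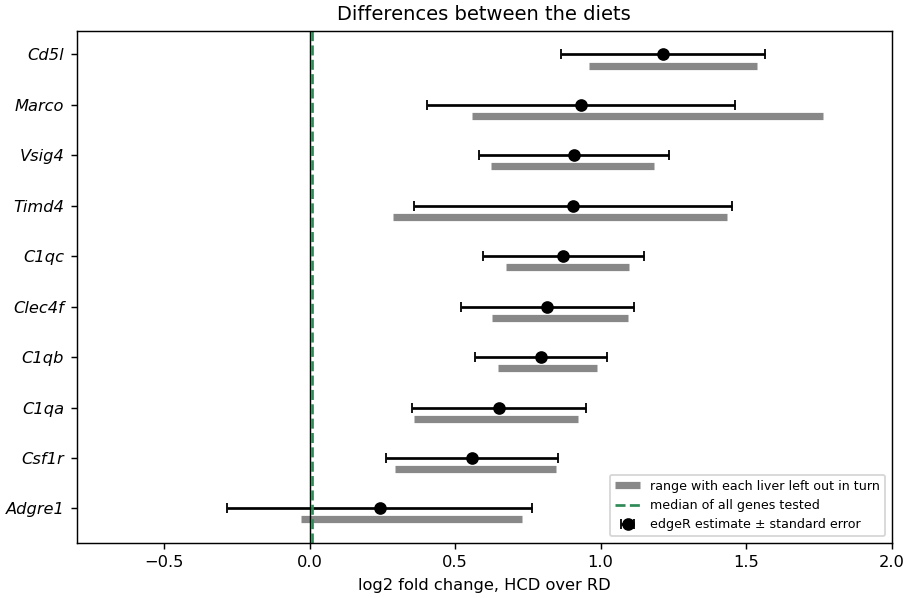
Log2 fold change of HCD over RD for each marker with its edgeR standard error (points and bars), and the range with each liver left out in turn (grey). All 10 points lie above 0, from 0.24 for Adgre1 to 1.21 for Cd5l, and the grey range of Adgre1 alone crosses 0.

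Partners of these complement genes were set beside them. The list held 12 complement components, inhibitors and receptors, and 1 of its 11 tested genes was higher with HCD and 10 lower, with 0 called and a median log2 fold change of -0.13. C1s1 alone had an unadjusted p under 0.05, with a log2 fold change of -0.33. C3, whose fragments Vsig4 binds and which hepatocytes make, was at 7011 to 8267 CPM with RD and 6127 to 8556 CPM with HCD (log2 fold change -0.043). C4b, a later component of the C1q pathway, was at 1693 to 1893 CPM with RD and 1071 to 1956 CPM with HCD (log2 fold change -0.30).

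Levels of different genes were compared by the deposited FPKM, which are per gene length. Averaged over the 6 livers, the order was Cd5l at 52.0 FPKM, C1qb at 48.6, C1qa at 48.3, Clec4f at 45.1, C1qc at 20.8, Vsig4 at 14.2, Csf1r at 9.54, Adgre1 at 3.55, Marco at 3.38 and Timd4 at 2.90. The first 4 could not be ordered: Cd5l was above C1qb in 2 of 6 livers, C1qb above C1qa in 3 and C1qa above Clec4f in 5. Clec4f, C1qc, Vsig4 and Csf1r were each above the next gene in all 6 livers. Adgre1 was above Marco in 5 livers and Marco above Timd4 in 3.

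The livers differed in much the same way for most markers. HCD replicate 1 was the highest liver for 7 of the 10, HCD replicate 2 for C1qb and Adgre1, and HCD replicate 3 for Marco. RD replicate 1 was the lowest for 8, and HCD replicate 3 for Adgre1 and Csf1r. The summed level of the 10 markers was 168.1, 210.7 and 276.7 CPM in the RD livers and 505.6, 448.2 and 229.7 CPM in the HCD livers, so HCD replicate 3 lay between RD replicates 2 and 3. For 8 of the 10 genes HCD replicate 3 was below RD replicate 3. Without HCD replicate 3 the median log2 fold change of the markers was 1.03, and without RD replicate 1 it was 0.61. In the 6 fits that left out 1 liver 0 markers were called, where these fits called 0.112% to 1.51% of all genes higher.

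Pairs of markers varied together across livers to unequal degrees. Over the 6 livers the correlation of log2 CPM between pairs of markers, a description in which the points share library and depth, had a median of 0.885 over 45 pairs. Clec4f and Vsig4 were the closest pair at 0.99, and Marco and Adgre1 the most distant at 0.23. Among the 8 markers other than Marco and Adgre1, the lowest pair was at 0.826.

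The proportions of the markers to each other were compared as ratios of CPM within each liver, which do not depend on library scaling. Of 9 ratios tested, 3 did not overlap between the diets, each with an exact permutation p of 0.1 and an adjusted p of 0.3 over the 9. Among single genes tested, the diets did not overlap for 27.6%, counting both directions. Most of the ratios share Clec4f as denominator and the C1q ratios share genes, so the 9 are not independent. With 3 livers against 3 the smallest exact p is 0.1, so no ratio could pass a threshold of 0.05. Cd5l over Clec4f was 0.745, 0.682 and 0.899 with RD and 1.10, 0.998 and 0.987 with HCD, a difference of 0.41 on the log2 scale, and here HCD replicate 3 sat with the other HCD livers. Adgre1 over Clec4f was 0.109, 0.102 and 0.167 with RD and 0.0929, 0.0990 and 0.0511 with HCD, a log2 difference of -0.66. C1qa over C1qc was 1.53, 1.33 and 1.33 with RD and 1.33, 1.11 and 1.03 with HCD, a log2 difference of -0.28, and the nearest livers were almost level. The tightest ratio was Vsig4 over Clec4f, at 0.174 to 0.210 in all 6 livers (exact permutation p = 0.3, adjusted p = 0.54). Marco over Clec4f ran from 0.0290 to 0.128 and Timd4 over Clec4f from 0.0334 to 0.0777, with diets that overlapped.

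**Figure D3:**
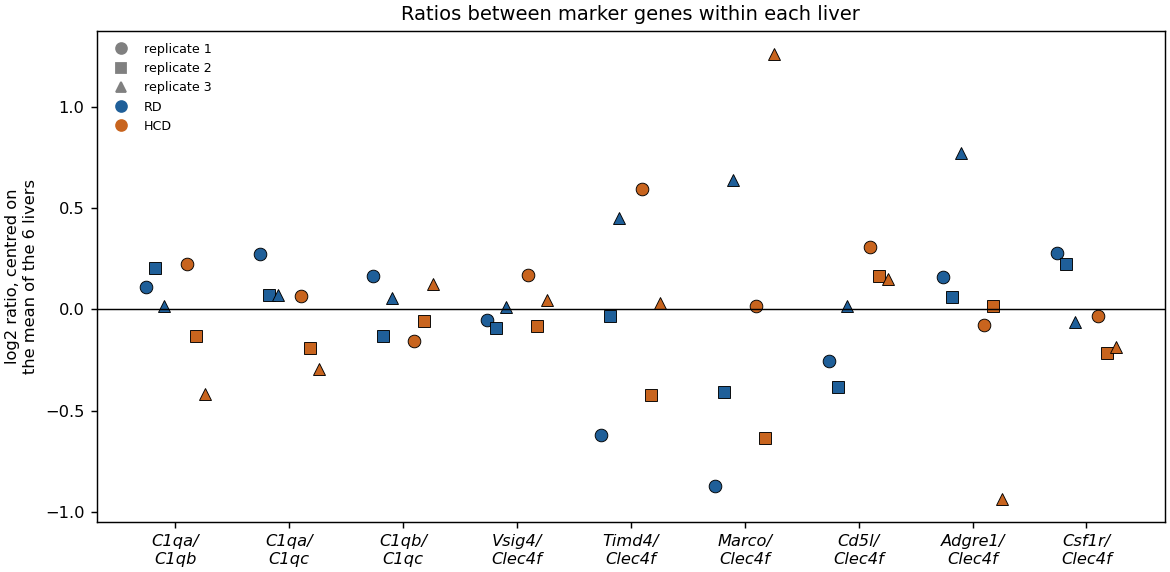
Log2 ratio of CPM between pairs of markers within each liver, centred on the mean of the 6 livers, with RD in blue, HCD in orange and the replicate number as the symbol. For Cd5l over Clec4f the 3 HCD livers lie above the 3 RD livers, for Adgre1 over Clec4f and C1qa over C1qc they lie below, and Vsig4 over Clec4f varies least.

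Among other macrophage genes were some in which all 3 HCD livers lay above all 3 RD livers. A list of 20 general macrophage genes had 19 higher and 1 lower, 12 of them higher with an unadjusted p of 0.05 or under, 8 with higher and non-overlapping HCD livers, and a median log2 fold change of 0.70. Over all genes tested 11.1% were higher by that p, 14% were higher without overlap and 1.95% were called higher. Of these 20 genes, 3 rose by edgeR's quasi-likelihood test. Cd14, the co-receptor for bacterial endotoxin, was at 1.298, 1.116 and 0.912 CPM with RD and 6.62, 4.69 and 4.94 CPM with HCD (log2 fold change 2.29, adjusted p = 0.0180). Fcer1g, the signalling chain of Fc receptors, was at 4.18, 4.26 and 5.43 CPM with RD and 11.02, 14.1 and 11.8 CPM with HCD (log2 fold change 1.41, edgeR adjusted p = 0.0201). Cd68, a lysosomal membrane protein of macrophages, was at 3.85, 4.33 and 5.12 CPM with RD and 10.5, 9.79 and 11.3 CPM with HCD (log2 fold change 1.24, edgeR adjusted p = 0.0277). In these 3 genes, which were picked by their calls, HCD replicate 3 stood with the other HCD livers, while over the whole list its mean log2 deviation was 0.006, below the 0.646 and 0.398 of HCD replicates 1 and 2. The most abundant genes of this list, Mpeg1 (29.9 to 95.4 CPM with RD, 67.1 to 70.5 with HCD) and Lyz2 (30.8 to 43.1 with RD, 39.1 to 70.5 with HCD), overlapped between the diets, with log2 fold changes of 0.30 and 0.67.

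A list of 16 other Kupffer cell genes had 15 tested, of which 14 were higher and 1 lower, with a median log2 fold change of 0.48 and 2 called. Of the 15, 5 were higher with an unadjusted p of 0.05 or under, and 5 were higher without overlap. Over all genes tested 50.7% were higher, 11.1% were higher by that p, 14% were higher without overlap and 1.95% were called higher. Slc40a1, which encodes the iron exporter ferroportin, was at 85.8, 98.4 and 98.8 CPM with RD and 253.0, 224.5 and 151.5 CPM with HCD (log2 fold change 1.15, edgeR adjusted p = 0.0257). Fcna, which encodes ficolin A, a lectin of the complement system, was at 16.6, 19.1 and 20.5 CPM with RD and 40.1, 32.8 and 30.2 CPM with HCD (log2 fold change 0.88, edgeR adjusted p = 0.0299). HCD replicate 3 was the lowest HCD liver for both, yet above every RD liver, in genes that were picked by their calls. Over the whole list the mean log2 deviation of HCD replicate 3 was -0.154, within the -0.469 to 0.02 of the RD livers.

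With 1 liver left out, calls over all genes fell too, from 255 higher to 15 without RD replicate 1, 20 without RD replicate 2, 73 without RD replicate 3, 200 without HCD replicate 1, 192 without HCD replicate 2 and 53 without HCD replicate 3. In these fits the edgeR adjusted p of the 5 called genes of the general macrophage and other Kupffer cell lists rose past 0.05 in many cases. Without RD replicate 1 the 5 genes had adjusted p of 0.0862 (Cd14) to 0.145 (Fcna), and without RD replicate 2 of 0.0871 (Cd14) to 0.131 (Fcna). Without RD replicate 3 they lay at 0.0418 (Fcer1g) to 0.0747 (Slc40a1). Leaving out HCD replicate 1 gave 0.0293 (Fcer1g) to 0.0546 (Fcna), HCD replicate 2 gave 0.0356 (Cd14) to 0.0544 (Slc40a1), and HCD replicate 3 gave 0.0190 (Slc40a1) to 0.0776 (Cd68). The log2 fold changes moved less, between 2.11 and 2.42 for Cd14, 1.29 and 1.54 for Fcer1g, 1.14 and 1.36 for Cd68, 1.00 and 1.33 for Slc40a1 and 0.75 and 0.95 for Fcna. With library sizes alone Fcna and Slc40a1 were not called (edgeR adjusted p = 0.0726 and 0.0527), and with the correction for gene length Fcna and Cd68 were not (edgeR adjusted p = 0.0796 and 0.0503).

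**Figure D4:**
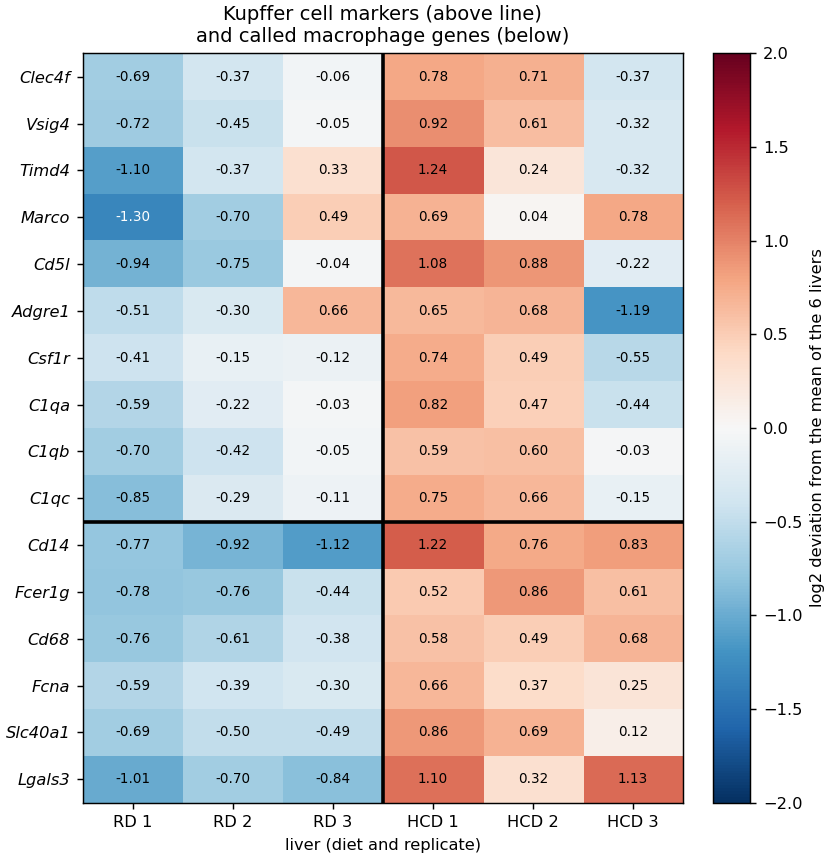
Log2 deviation of CPM from the mean of the 6 livers for the 10 markers (above the line) and for the 6 genes of the macrophage lists called higher (below), with livers in columns. HCD replicate 3 is negative for 9 of the 10 markers, all but Marco, and positive for the 6 genes called higher, which were chosen by their calls. Fabp5, called lower in the lipid-associated list, is not drawn.

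Lists for other states of macrophages were set beside the markers as well. Of the 8 lipid-associated macrophage genes 7 were tested, with 1 called higher and 1 lower, where 1.95% of all genes tested were called higher and 1.32% lower. Lgals3, which encodes galectin-3, was at 1.88, 2.44 and 2.17 CPM with RD and 9.76, 5.45 and 9.97 CPM with HCD (log2 fold change 1.96, edgeR adjusted p = 0.0235). The call was lost without any 1 of the 3 RD livers or HCD replicate 3, with edgeR adjusted p of 0.0647 to 0.117, while the log2 fold change stayed between 1.81 and 2.18 with each liver left out. Fabp5, a fatty acid binding protein that hepatocytes express too, was at 61.1, 36.0 and 116.7 CPM with RD and 3.13, 4.48 and 4.94 CPM with HCD (log2 fold change -4.10, edgeR adjusted p = 0.00523). The most abundant of the list, Spp1 (26.8 to 75.5 CPM with RD, 49.3 to 72.5 with HCD) and Lpl (25.0 to 72.5 with RD, 47.0 to 53.1 with HCD), overlapped.

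Of 10 monocyte and recruited macrophage genes 6 were tested, and all 6 were higher with a median log2 fold change of 0.79, 0 called and Plac8 alone under an unadjusted p of 0.05. By that p 11.1% of all genes tested were higher. The mean log2 deviation of the 6 genes was -0.341 to -0.219 in the RD livers and 0.206 to 0.323 in the HCD livers. HCD replicate 3 was the highest liver for this list at 0.323, and it stood at -0.281 for the Kupffer cell markers. Plac8 was at 3.75 to 4.17 CPM with RD and 4.90 to 8.35 with HCD (log2 fold change 0.77, edgeR adjusted p = 0.175). Ccr2, the receptor that draws monocytes into tissue, was at 1.20 to 1.56 CPM with RD and 1.10 to 2.07 with HCD. Of 13 genes of macrophage activation 5 were tested, all 5 higher, 0 called and Ccl24 alone under an unadjusted p of 0.05. Tnf, Il6, Il10 and Nos2 were removed by the low-count filter, and the most abundant, Il18 and Ccl24, had log2 fold changes of 0.34 and 1.59 with edgeR adjusted p of 0.535 and 0.131.

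Genes of other liver cells were examined for the same arrangement of livers, since a piece of liver can hold more or less of its non-parenchymal cells. The mean log2 deviation from the 6 livers was -0.783, -0.402 and 0.103 for the 10 markers in the RD livers and 0.826, 0.538 and -0.281 in the HCD livers. For 16 genes of sinusoidal endothelium it was -0.299, -0.477 and 0.276 with RD and 0.562, -0.088 and 0.025 with HCD. For 12 genes of stellate cells it was -0.271, -0.119 and -0.199 with RD and 0.38, -0.079 and 0.289 with HCD. HCD replicate 1, the liver highest in most Kupffer markers, was thus also the highest in genes of both other sinusoidal cell types, while HCD replicate 2, the next in the markers, was below the mean for both. For 12 hepatocyte genes the deviation was -0.125, 0.002 and 0.275 with RD and -0.172, -0.164 and 0.184 with HCD.

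**Figure D5:**
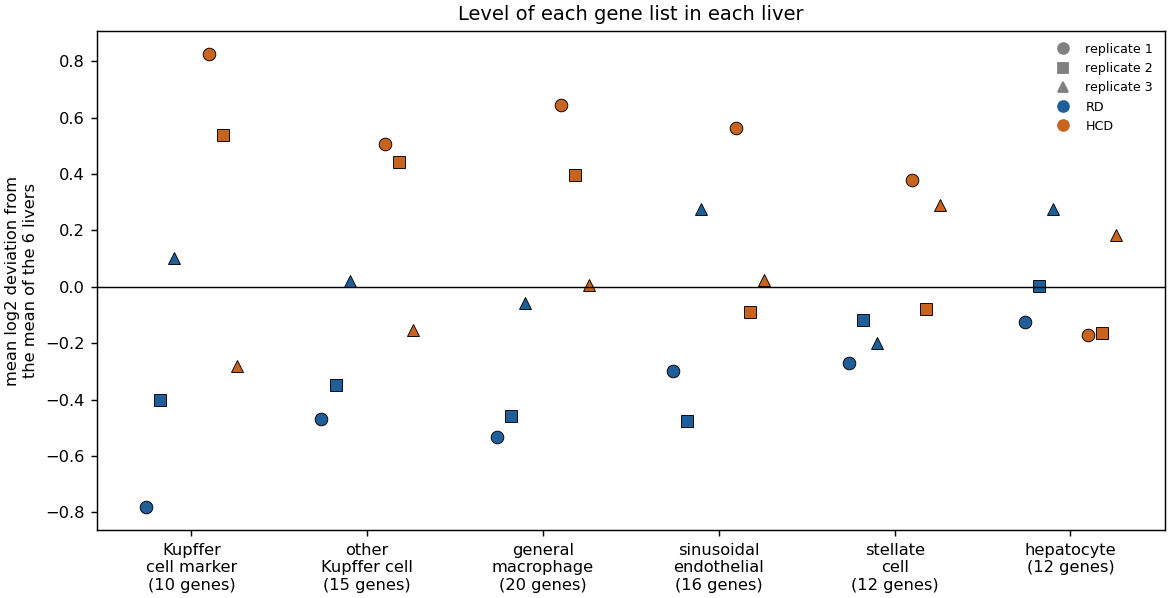
Mean log2 deviation from the mean of the 6 livers for the tested genes of 6 lists, 1 point per liver, with RD in blue, HCD in orange and the replicate number as the symbol. The Kupffer cell markers span -0.783 to 0.826, and the hepatocyte genes span -0.172 to 0.275.

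All 16 sinusoidal endothelial genes were tested, of which 14 were higher and 2 lower, with a median log2 fold change of 0.35. Of these, 0 were called by edgeR, 4 were higher under an unadjusted p of 0.05 and 2 were called by DESeq2. Over all genes tested 50.7% were higher and 11.1% were higher by that p, and DESeq2 called 3.88% higher. The summed level of the 16 genes was 255.7 to 434.8 CPM with RD and 357.9 to 540.9 CPM with HCD. Eng, the most abundant, had a log2 fold change of 0.39, and Dnase1l3, with diets that did not overlap, one of 0.68 (edgeR adjusted p = 0.287 and 0.119). All 12 stellate cell genes were higher, with a median of 0.41, 0 called, 2 under an unadjusted p of 0.05 and a summed level of 381.4 to 438.1 CPM with RD and 416.6 to 681.6 CPM with HCD. Ecm1 and Dcn were the most abundant, with log2 fold changes of 0.50 and 0.54. The part of these cell types in the marker difference was not tested.

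Of the 12 hepatocyte genes 4 were higher and 8 lower, with a median log2 fold change of -0.24, 0 called, 2 in each direction under an unadjusted p of 0.05 and a summed level of 110500 to 146900 CPM with RD and 114900 to 157700 CPM with HCD. Of 5 tested cholangiocyte genes 3 were higher, 0 called and 0 under an unadjusted p of 0.05, and Sox9 had a log2 fold change of -0.012. Of 8 neutrophil genes 3 were tested, 0 called and 0 under an unadjusted p of 0.05, with S100a9 at 0.767 to 2.68 CPM and Csf3r at 0.730 to 1.97 CPM over the 6 livers. Of 15 lymphocyte genes 4 were tested, 0 called and 1 (Trbc1) under an unadjusted p of 0.05, with Ighm at 2.69 to 11.3 CPM and Cd4 at 0.276 to 2.21 CPM. Among 5 tested red blood cell genes, Hba-a1 and Hbb-bs rose, with log2 fold changes of 2.41 and 2.28 and edgeR adjusted p of 0.0217 and 0.0223, each losing its call without RD replicate 1, RD replicate 2 or HCD replicate 3 (highest adjusted p 0.112), while their log2 fold changes stayed between 2.13 and 2.71 and between 2.00 and 2.68. Over all genes tested, edgeR called 1.95% higher, and 11.1% were higher and 9.81% lower by the unadjusted p. DESeq2 called 2 hepatocyte genes in each direction, where it called 552 of 14223 genes higher and 440 lower. It called 0 cholangiocyte, stellate cell, neutrophil, lymphocyte, monocyte, activation, complement and CSF1 receptor axis genes. Alas2, the most abundant red blood cell gene, was at 105.1 to 153.7 CPM with RD and at 8.24, 97.0 and 119.3 CPM with HCD. Globin RNA comes with blood left in the organ, and its part in the marker values was not tested.

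Gene length moved with the diet comparison over all genes. The median log2 fold change was 0.32 in the shortest 10% of genes, which holds C1qa and C1qb, and -0.17 in the longest 10%. In the second decile, with Cd5l, C1qc, Vsig4, Marco and Timd4, it was 0.23, in the third, with Clec4f, 0.10, in the fourth, with Adgre1, 0.043, and in the seventh, with Csf1r, -0.075. After a correction for each library's trend with length, the median over the 10 markers was 0.75 and all 10 stayed above 0. The value for C1qa became 0.45, that for C1qb 0.60 and that for Csf1r 0.63.

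The genes whose pattern over the 6 livers was most like that of the markers were found by Pearson's r with the mean of the 10, each scaled to unit SD, among 12177 other genes averaging 1 CPM or more. The 10 highest were Zfand2b (0.993), Slc11a1 (0.991), Gm4129 (0.988), Ly9 (0.987), Ctss (0.986), Laptm5 (0.985), Cks2 (0.985), Cds2 (0.983), Tmem86a (0.983) and Lonrf3 (0.981). An r of 0.95 or more was reached by 34 genes (0.279%), and all points share library and depth. Slc11a1 (3.46, 4.604 and 5.78 CPM with RD, 9.15, 7.10 and 4.94 with HCD), Ctss and Laptm5 belong to the macrophage lists, and the most abundant of the 10 was Cds2, at 93.4, 103.7 and 139.3 CPM with RD and 173.4, 150.8 and 115.6 with HCD. By list, the median r was 0.769 for other Kupffer cell genes, 0.751 for general macrophage genes, 0.719 for sinusoidal endothelial genes, 0.507 for stellate cell genes and -0.337 for hepatocyte genes, against 0.017 over all genes tested.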

How the data were processed

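Liver RNA of 6 C57BL/6J mice (3 RD, 3 HCD, 3 days) was sequenced, and diet and replicate were taken from the sample labels. The authors deposited read counts per gene, whole numbers without normalization, and FPKM, fragments scaled to gene length and library total. The deposited log2 fold changes and p-values compare HCD with RD and were not used. RNA was isolated with the RNeasy Kit, and library construction, sequencing and analysis were done by Novogene. The submitters' processing notes name STAR, HTSeq, DESeq2, edgeR and the build GRCm39, without versions, whereas gene lengths implied by counts and FPKM matched GENCODE M21 (GRCm38) within 0.1% for 95.1 to 95.3% of genes. Only chromosomes are therefore given for genes, from M21, and the coordinates given with the promoter sequences are those of the printed bases in RefSeq (GRCm38.p6).

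The test was made with edgeR 4.0.16 in R 4.3.3 (filterByExpr by diet, TMM, glmQLFit and glmQLFTest, no covariate), and p-values were adjusted by Benjamini-Hochberg over 13105 genes. TMM factors were 0.886 to 1.07. The common biological coefficient of variation was 27.8%. CPM were TMM-scaled, and standard errors are the absolute log2 fold change divided by the square root of F. Levels of list genes per liver are log2 deviations of CPM. Exact permutation tests over 3 against 3 livers were two-sided. Transcripts of other genes aligned to a marker over 200 bases or more (minimap2 2.31) only for Csf1r, with the overlapping Hmgxb3. No 2 replicates agreed within sampling noise (chi-square over its degrees of freedom at least 29.99). The labels do not say that the samples of one diet came from separate cages or days, so p-values measure the spread between these livers. The script was tested on simulated data. Figures were drawn with Python 3.11.15 and matplotlib 3.10.9.

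Named genes are the 10 markers, Csf1 and Il34, up to 4 called genes and the 2 most abundant of each list, and the 10 genes with the most similar pattern; sex-linked genes were named by the rule for HCD replicate 1. Spi1, C1s1, Trbc1, Hmgxb3, Tnf, Il6, Il10 and Nos2 were named after their values were seen. One gene that this rule would name is not reported here. The markers and lists were chosen with earlier results of these data known, so counts over lists carry no test. Alternatives were DESeq2 1.42.0, RLE, upper-quartile and no scaling factors, 2 other filters on low counts, limma 3.58.1 on log2 of FPKM plus 1 or 0.1, a length-trend correction (loess span 0.5), protein-coding genes only, a replicate block, and each liver left out in turn.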

Additional observations from a re-analysis of the deposited data

How the results depend on the processing

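The number of markers called higher was 4 with DESeq2 (log2 fold changes of Clec4f 0.80, Cd5l 1.20, C1qb 0.78 and C1qc 0.86), 1 without a filter on low counts (Cd5l, 1.21), 5 where p of 0.05 or under was left unadjusted, and 0 under every other alternative, including each liver left out in turn (0 to 0). No marker was called lower under any alternative, and the cause of the differences between tools was not tested. Adgre1 reversed to -0.015 without HCD replicate 1 and to -0.029 without HCD replicate 2, within a range of -0.029 to 0.73 with each liver left out, and every other marker kept its direction. The samples of the 2 diets share replicate numbers, but their deviations correlated at -0.084, 0.119 and -0.030, so the numbers were not treated as pairing, and RD replicates 1 and 3 did not correlate best with their own number. A fit with the replicate block called 71 genes higher and 65 lower in place of 255 and 173, with 0 markers, 0 other Kupffer cell, 0 general macrophage, 0 lipid-associated (higher) and 0 red blood cell genes. Over all genes DESeq2 called 552 higher and 440 lower, and leaving out RD replicate 1 called 15 and 21.

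Other Kupffer cell genes called higher were 2, with 3 by DESeq2, 3 without a filter on low counts, 0 on library sizes alone, 1 with the length-trend correction and 0 to 1 with a liver left out. General macrophage genes called higher were 3, with 5 by DESeq2, 5 by limma on either FPKM scale, 2 with the length-trend correction (Cd68 lost, adjusted p = 0.0503) and 0 to 3 with a liver left out. Lipid-associated genes called higher ran from 0 to 1 and red blood cell genes from 0 to 2 with a liver left out. DESeq2 called 2 sinusoidal endothelial genes higher, and 2 hepatocyte genes higher and 2 lower, where library sizes alone called 2 hepatocyte genes lower and no filter on low counts gave 1 higher and 2 lower. After centring on diet, 0 of the 10 genes most like the markers stayed among the first 10, but they kept correlations of 0.971 to 0.986, at ranks 17 to 56 of 12177.

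With 3 livers per diet, the spread between livers differed by gene: Marco had a coefficient of variation of 75.9% with RD and 27.8% with HCD, and C1qb 23.3% with both. Library preparation was not described beyond the kit for RNA, and strand was not given in the sources used here.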
